A study of Hordeum vulgare with 32 samples.

Results

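The interval of barley chromosome 1 from PopSeq map position 28 to 60 holds 1120 of the 30174 transcripts in the deposited table, of which 624 are high-confidence and 496 low-confidence gene models. Members were taken by chromosome and map position alone, and the row of VRS3 itself, MLOC_69611.1 at position 47.52, was left out. The transcripts lie at 113 distinct map positions, from 28.12 to 59.42, and 279 of them share position 48.09, since markers that recombine rarely fall on the same point of a genetic map. Barley (Hordeum vulgare) plants were grown with days of 16 h at 22 °C and nights of 8 h at 18 °C, and RNA of their main shoot apex was sequenced in 32 libraries. The 2-rowed cultivar Bowman gave 4 libraries at Waddington stage W3.5 and 4 at W5.5. The near-isogenic lines vrs1 (GSHO stock 1907), int-c.5 (2003), int-a.1 (2055) and vrs4.k (1986), all in the Bowman background, gave 3 libraries per stage each. Each line is a single stock with 1 allele, so an effect of the allele and an effect of anything else the stock carries cannot be told apart.

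Barley spikes form triplets of spikelets, and in 2-rowed cultivars the lateral spikelets of each triplet stay sterile. VRS3, also named INT-A, encodes a histone demethylase with a jumonji domain and is one of the row-type genes that restrain lateral spikelets, together with VRS1, VRS4 and INT-C. Near-isogenic lines are made by repeated backcrossing to a recurrent parent with selection for 1 locus, so chromosome around the selected locus can still come from the donor. The table gives no genotypes, so where donor chromosome begins and ends in these lines was not analysed here, and no cause of any difference below was tested.

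Abundance is given as TPM, in which a transcript's reads are scaled by its length and by the library. Differences were taken after adding 1 TPM and log2 transformation, so they understate changes of weak transcripts. A transcript was called where limma's Benjamini-Hochberg adjusted p over all 30174 transcripts was below 0.05. Library totals ran from 980945 to 987728 TPM and sequencing depth is unknown. Nothing says that the libraries of a group came from separate plantings, so the p-values measure the spread between these samples, which may be technical. Matches of meristem and flower genes were present in every library, with KNAT1 matches between 39.1 and 89 TPM in sum and AP1 matches between 204 and 549 TPM. Matches of the leaf gene LHCB1 were present too, at 205 to 667 TPM in sum, and their part in the results was not tested. In all, 4 libraries lay apart from their stage, at or beyond the median of the other stage on the first principal component. This component held 24.2% of the variance. The libraries were replicate 4 of Bowman, replicate 2 of vrs4.k and replicate 1 of int-a.1 at W3.5, and replicate 1 of int-c.5 at W5.5. The RNA came from whole apices, so fewer cells of a type and less RNA per cell cannot be told apart.

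In int-a.1, strongly reduced transcripts lay scattered along the interval among neighbours that were mostly not called. Over the mean of both stages 48 of the 1120 transcripts were called in int-a.1, or 4.29% of the interval against 2.13% of the whole table. Of these 35 were lower and 13 higher, where 1.8% and 0.335% of the table were lower and higher. On the rest of chromosome 1, 8 of 933 transcripts were called (0.857%), all of them lower. The differences of at least 2-fold numbered 21 in the interval, 16 lower and 5 higher, against 0.693%, 0.544% and 0.149% of the table and 3 of 933 transcripts on the rest of the chromosome. The median log2 difference over the interval was 0.01, and the 5th and 95th percentiles were -0.59 and 0.28, against -0.50 and 0.27 in the whole table. Leaving out the libraries that lay apart from their stage raised the count to 69. The share of the whole table called in that fit is not given here. With limma's weights per library the count was 160, or 14.3% of the interval against 10.3% of the table, so the size of the count and its distance from the table depend on the fit.

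Low-confidence models made up 35 of the 48 calls and 19 of the 21 differences of at least 2-fold. The calls were 35 of 496 low-confidence and 13 of 624 high-confidence members. The corresponding shares in the whole table are not given here, so this is not read as a trait of the interval. At W3.5 alone 26 transcripts were called (0.653% of the table), and at W5.5 alone 25 (0.709% of the table). The means of these 2 comparisons share no library, but both use the same spread per transcript, estimated over all 32 libraries. Their calls are therefore not independent. In both, 21 transcripts were called with the same sign, 16 of them lower. These are 1.88% and 1.43% of the interval, against 0.365% and 0.315% of the table. In 32 transcripts the int-a.1 and Bowman libraries did not overlap at either stage, 22 of them lower, against 1.15% and 0.928% of the table. In a fit restricted to the groups compared, the W3.5 count was 2 and the count over both stages 25. The shares of the whole table in that fit are not given here. With library weights the counts were 113 at W3.5 (10.1%, against 9.07% of the table) and 63 at W5.5 (5.62%, against 2.22%). The difference from Bowman was not called as unequal between the stages for any member, and none of the 30174 transcripts passed that interaction test in limma, although 73 members (6.52%, against 5.85% of the table) had an unadjusted p below 0.05. With library weights that test called 23 members (2.05%, against 0.686% of the table).

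**Figure D1:**
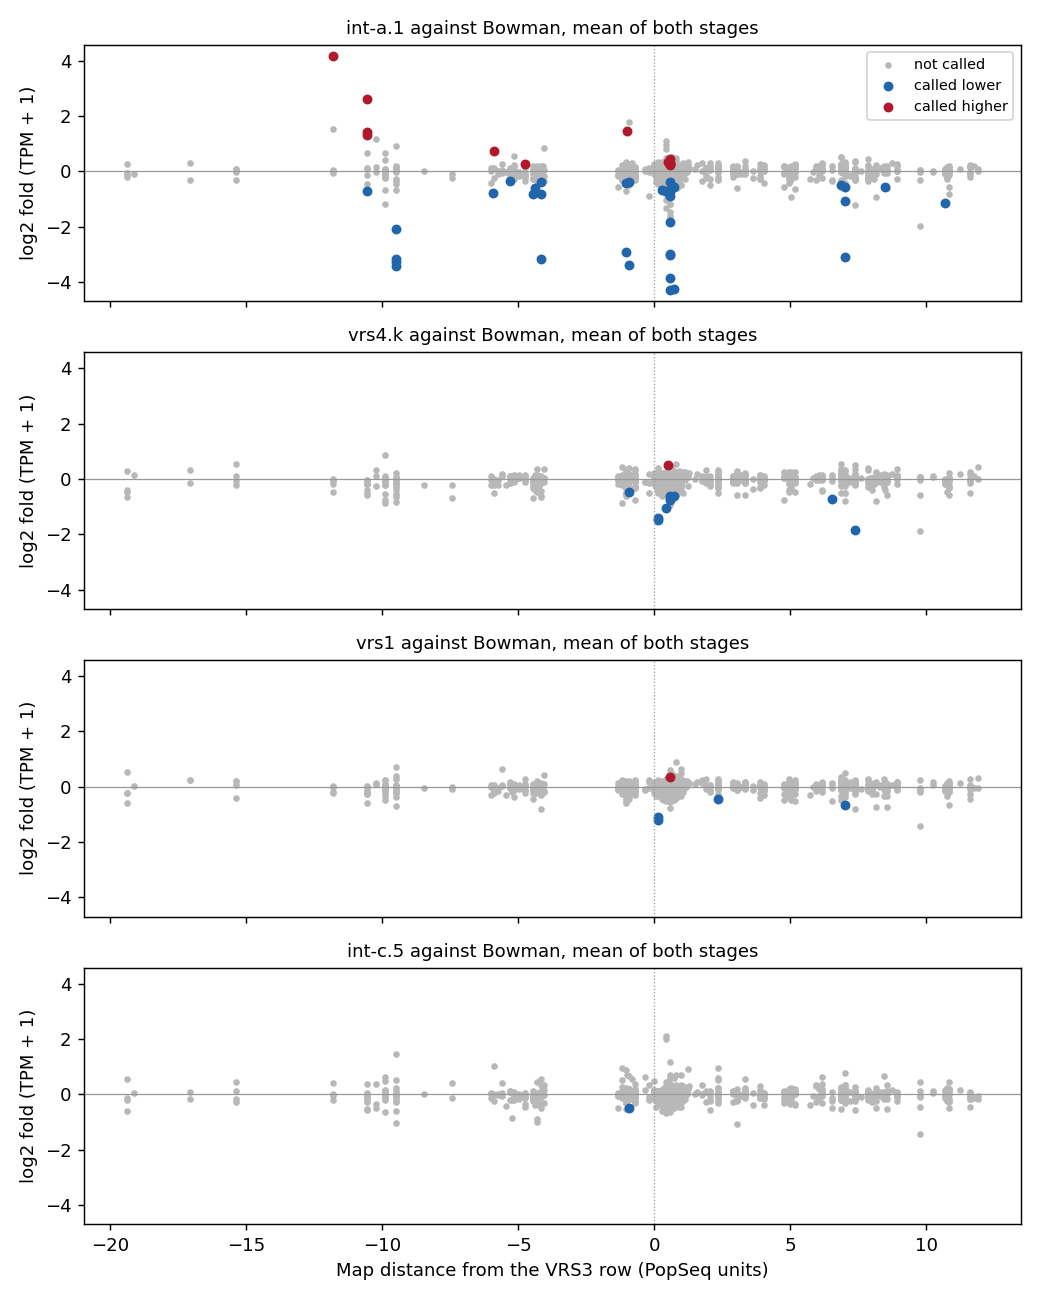
Log2 fold of each line against Bowman, as the mean of both stages on the log2(TPM + 1) scale, for the 1120 interval transcripts against map distance from the VRS3 row; 1 point is 1 transcript, blue and red points are called lower and higher. In int-a.1 the blue and red points reach -4.28 and 4.15 and spread over both sides of the VRS3 row, while vrs4.k, vrs1 and int-c.5 show 11, 5 and 1 called transcripts.

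Calls in int-a.1 were unevenly placed along the map, which is described here in stretches of joined bins. These stretches were not planned, and their edges partly follow runs with and without calls, so their shares are description only. None of the 11 transcripts from 28 to 34 was called, too few to compare with the 2.13% of the table. From 34 to 40, 9 of 47 (19.1%) were called, 8 of them at least 2-fold. From 40 to 44 the count was 9 of 77 (11.7%), with 1 at least 2-fold. No transcript of the table lies from 44 to 46. The crowded stretch from 46 to 50, which includes the VRS3 position, had 24 of 685 (3.5%), 9 of them at least 2-fold. None of the 121 transcripts from 50 to 54 was called, and 6 of 179 (3.35%) from 54 to 60 were, all lower.

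The 13 rises all lay between 35.69 and 48.09. The 21 large differences fell on 11 map positions, from 35.69 to 58.22. Just outside the interval the table has transcripts at 27.83 and 60.84. The nearest called transcript outside was MLOC_81180.1 at 27.27, with a log2 fold of -0.69 and an adjusted p of 0.020, and the next beyond the far edge lay at 86.54. Bins below 20 transcripts, including all those before 36, are too thin for their shares to be read closely.

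**Figure D2:**
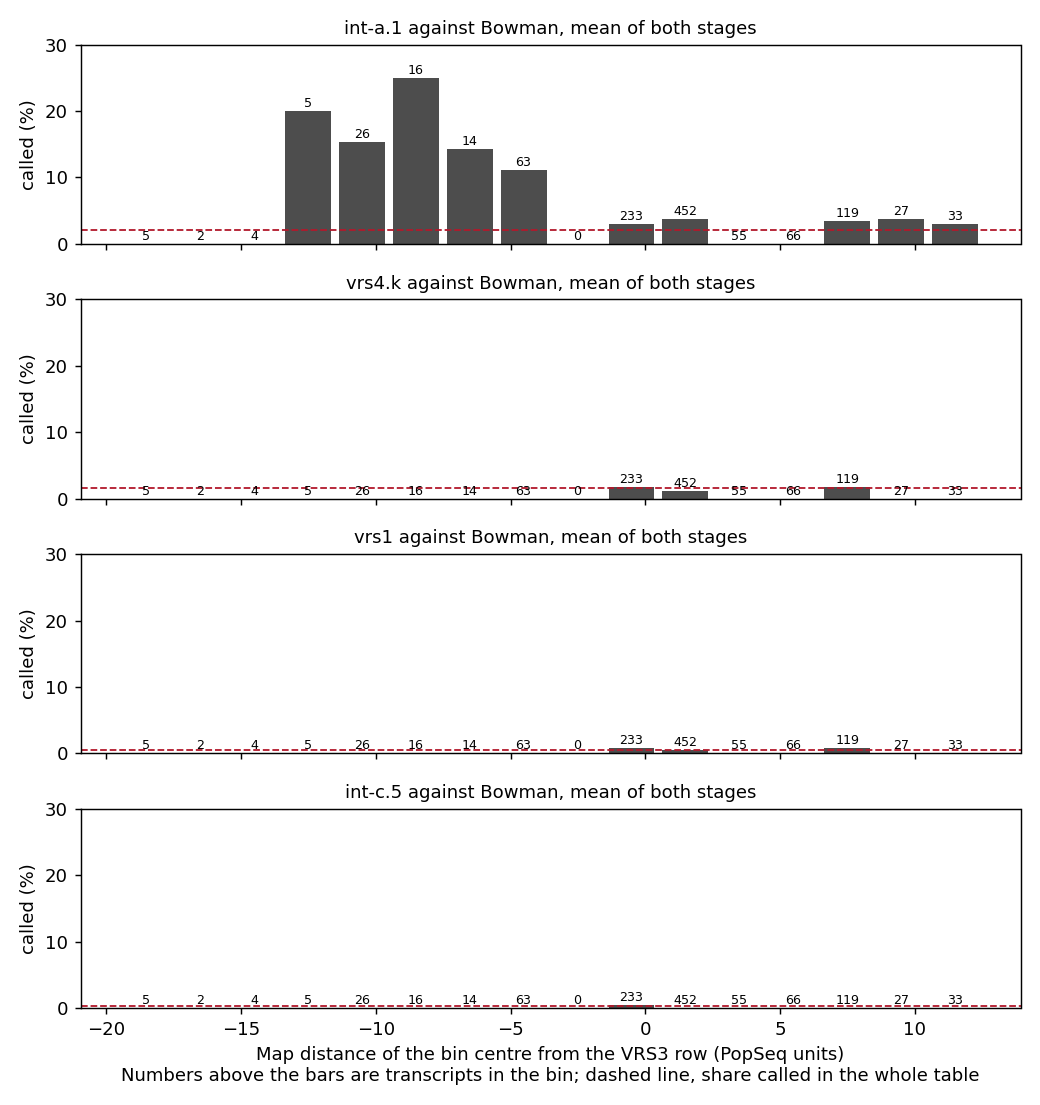
Share of interval transcripts called against Bowman over the mean of both stages, in bins of 2 map units, by distance of the bin centre from the VRS3 row; the number above each bar is the number of transcripts in the bin and the dashed line is the share called in the whole table. In int-a.1 the 5 bins from 34 to 44 reach 11.1% to 25%, all above the dashed line at 2.13%. The 2 bins around the VRS3 position hold 3.0% and 3.76%. The bins from 34 to 36, 38 to 40 and 40 to 42 hold only 5, 16 and 14 transcripts, too few for their shares to be read closely.

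At 38.03, on the near side of the gap, 4 low-confidence models fell together out of 15 transcripts at that position. MLOC_8062.1 read 9.5, 17.2, 18.8 and 11.7 TPM in the Bowman W3.5 libraries and 9.5, 15.2, 10.9 and 13.1 TPM at W5.5. The int-a.1 libraries gave 0, 0.5 and 1.9 TPM at W3.5, and all 3 W5.5 libraries list it at 0. No int-a.1 library reached the lowest Bowman library, and the log2 fold over both stages was -3.44 (SE 0.21, limma adjusted p 3.4e-11). MLOC_61682.1, MLOC_61683.1 and MLOC_61684.1 carry consecutive identifiers, have no described match and had log2 folds of -3.18, -2.08 and -3.30, so they may be fragments of 1 gene and are not 3 independent observations.

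MLOC_21735.1, at 43.34, is a high-confidence model of the transketolase family that matches Arabidopsis MAB1, a subunit of the mitochondrial pyruvate dehydrogenase complex. Bowman held 7.7, 14.4, 16 and 16.8 TPM at W3.5 and 13.8, 24.2, 17.2 and 16.1 TPM at W5.5. The int-a.1 libraries held 0.2, 1.4 and 4 TPM at W3.5 and 0.5, 0.2 and 0.4 TPM at W5.5. The groups did not overlap at either stage, and the log2 fold was -3.15 (SE 0.22, limma adjusted p 3.6e-10). Its rice match, LOC_Os09g33500, is shared by 3 transcripts of the table, of which 2 were called lower in int-a.1, so reads that fit more than 1 of them could have been assigned to either.

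At the same position MLOC_77982.1, a match of a wound-responsive protein, is among the strongest transcripts named here and moved much less. Its mean fell from 498 ± 38 TPM (SD, n = 4) to 390 ± 28.1 TPM (n = 3) at W3.5 and from 501 ± 30.3 to 376 ± 30.7 TPM at W5.5. All 6 int-a.1 libraries lay below all 8 of Bowman, with a log2 fold of -0.38 (SE 0.06, limma adjusted p 0.00021).

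The largest falls lay within 1 map unit of the VRS3 position, in the crowded stretch from 46 to 50 with 685 of the 1120 transcripts. Of those 685, 9 differed at least 2-fold, against 8 of 47 from 34 to 40. Closeness to VRS3 is therefore not read as a result. MLOC_24935.1, at 48.23, matches GH9B8, a glycosyl hydrolase of the endoglucanase family that acts on cell wall glucans. Bowman read 65.7, 81.8, 114.3 and 87.2 TPM at W3.5 and 82.7, 133.8, 107.7 and 90.2 TPM at W5.5. In int-a.1 the values were 4.6, 6.7 and 26.4 TPM at W3.5 and 2.2, 0 and 2.7 TPM at W5.5. The lowest Bowman library was above every int-a.1 library, and the log2 fold was -3.03 (SE 0.38) at W3.5, -5.50 (SE 0.38) at W5.5 and -4.26 (SE 0.27, limma adjusted p 4.5e-11) over both.

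AK372801, at 48.09, matches an AAA-type ATPase, a class of proteins that use ATP to remodel other proteins. Bowman held 18.7, 21.6, 36 and 19.1 TPM at W3.5 and 23.3, 39.7, 32.6 and 28.6 TPM at W5.5. The int-a.1 libraries held 0.1, 2.1 and 7.0 TPM and then 0, 0 and 0.7 TPM. All 6 were below all 8 of Bowman, with a log2 fold of -3.86 (SE 0.28, limma adjusted p 3.6e-10). MLOC_47866.1, at the same position and without a described match, had the lowest log2 fold of the interval, -4.28 (SE 0.31, adjusted p 5.6e-10), from a Bowman range of 22.2 to 60.6 TPM to an int-a.1 range of 0 to 4.6 TPM. At 48.09 and also without a match, AK369253 and MLOC_81923.1 had log2 folds of -3.03 and -1.83, MLOC_46579.1 lay between them, and MLOC_25930.1 at 46.46 had -2.92. The transcripts without a match are named after their values were seen.

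Beyond the stretch without calls, MLOC_7032.1 at 54.53 is the other high-confidence model with a large fall. It matches a family of glycine-rich proteins. Its rice match, LOC_Os05g28780, is shared by 2 transcripts of the table, both called lower in int-a.1. The other, MLOC_49341.1, is not placed on chromosome 1, and reads that fit both could have been assigned to either. For MLOC_7032.1 Bowman held 9.6, 10.2, 10.3 and 11 TPM at W3.5 and 10.9, 13.2, 10.6 and 10.9 TPM at W5.5. The int-a.1 libraries held 0, 0.4 and 3.2 TPM and then 0.1, 0 and 0.1 TPM. No library of the 2 lines overlapped, and the log2 fold was -3.09 (SE 0.18, limma adjusted p 1.7e-11). Its neighbour MLOC_78819.1 at 54.39, which matches a lipase of the alpha/beta-hydrolase superfamily, was lower by a smaller step, with a log2 fold of -0.50 (SE 0.09, adjusted p 0.0016) and Bowman and int-a.1 ranges of 11.4 to 19 and 7.7 to 12.4 TPM.

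**Figure D3:**
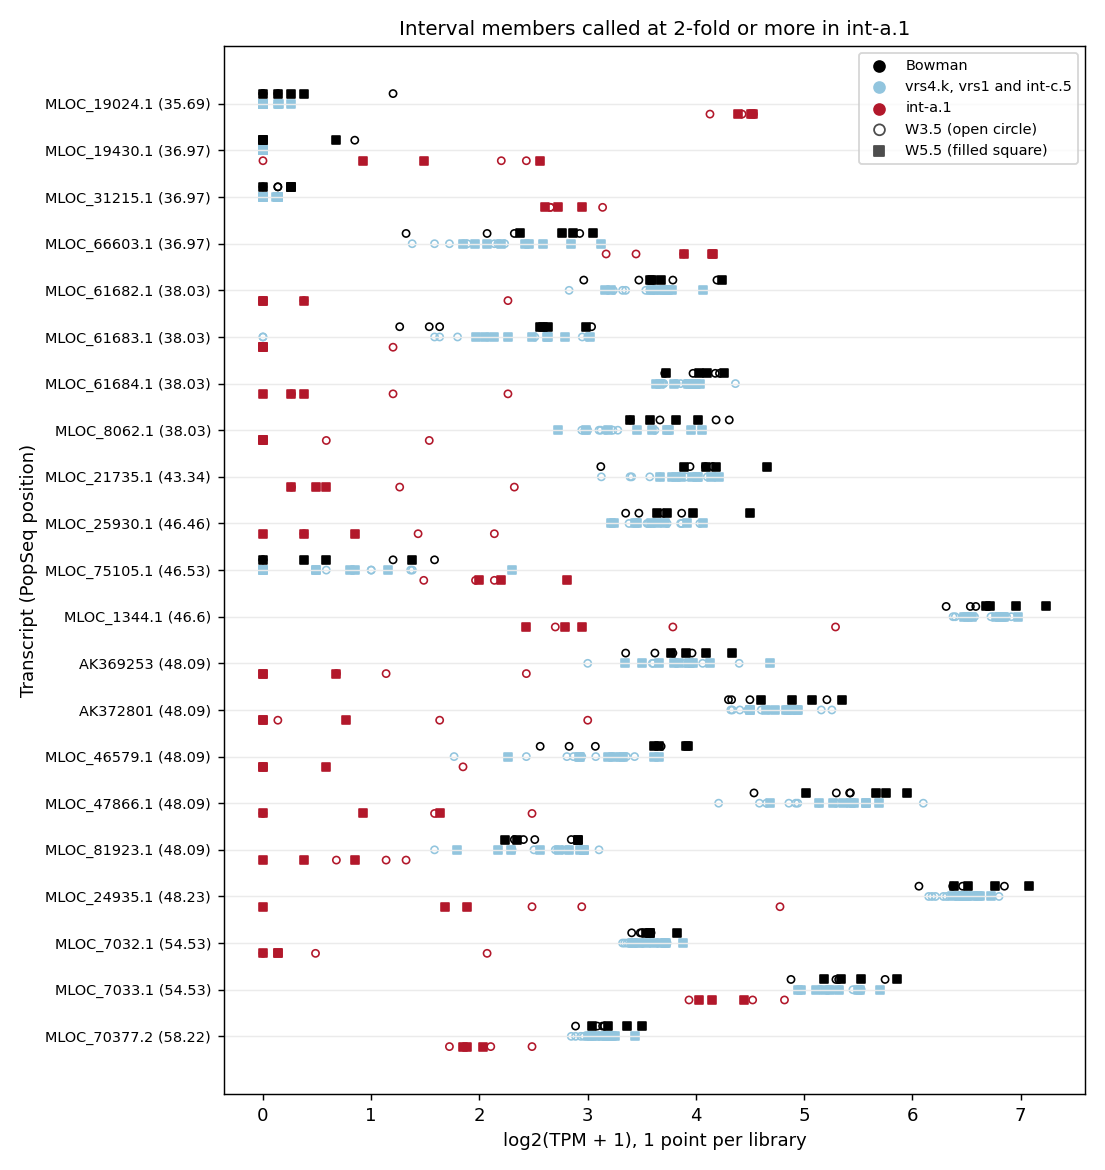
Log2(TPM + 1) in each of the 32 libraries for the 21 interval transcripts called at 2-fold or more in int-a.1 over both stages, ordered by map position, with Bowman in black, int-a.1 in red and the other 3 lines in pale blue. In 19 of the 21 rows all red points lie outside the black ones, and the pale blue points mostly lie among or near the black ones; these transcripts were chosen for their int-a.1 difference from Bowman.

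Among the gene groups, pentatricopeptide repeat (PPR) proteins, RNA-binding proteins of chloroplasts and mitochondria, had 3 of 20 members called, all lower, against 2.16% of the 232 transcripts of this list in the whole table. The 3 match the same Arabidopsis gene, AT1G80880, and the same rice gene, LOC_Os08g17080, and so may share reads. MLOC_1344.1, at 46.6, held 78.4, 95, 91.7 and 102.5 TPM in Bowman at W3.5 and 101.3, 149.8, 123.0 and 103.9 TPM at W5.5. In int-a.1 it held 5.5, 12.8 and 38.1 TPM at W3.5 and 6.7, 4.4 and 5.9 TPM at W5.5. The groups did not overlap and the log2 fold was -3.39 (SE 0.23, limma adjusted p 1.5e-10).

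MLOC_7033.1, at 54.53, fell from a Bowman range of 28.4 to 57.1 TPM to an int-a.1 range of 14.3 to 27.2 TPM, a log2 fold of -1.08 (SE 0.15, limma adjusted p 4.3e-05). MLOC_70377.2, at 58.22, was the called transcript farthest along the map, with 6.4 to 10.3 TPM in Bowman, 2.3 to 4.6 TPM in int-a.1 and a log2 fold of -1.15 (SE 0.10, adjusted p 6.8e-09). The table holds 5 transcripts with this match in all, and each of them was called lower in int-a.1. The other 2 lie outside the interval: MLOC_29733.1 is placed on chromosome 5 at 130.14 and had a log2 fold of -3.33, from a Bowman median of 23.4 TPM to an int-a.1 median of 1.15 TPM, and MLOC_29481.1 has no map position and had a log2 fold of -2.65. Falls with this match were thus not confined to chromosome 1, and how reads were divided among the 5 was not analysed here.

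All 5 rises of at least 2-fold came from low-confidence models without an informative match, so no function can be given for them. MLOC_19024.1, at 35.69, was the first called transcript along the map. Bowman listed 1.3, 0, 0.1 and 0 TPM at W3.5 and 0.2, 0.3, 0.1 and 0 TPM at W5.5, while int-a.1 held 22.1, 20.5 and 16.5 TPM and then 20, 21.8 and 22.1 TPM. The libraries of the other 3 lines reached at most 0.2 TPM. The log2 fold was 4.15 (SE 0.13, limma adjusted p 1.8e-17).

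At 36.97, 3 of 9 transcripts rose at least 2-fold. MLOC_31215.1 went from at most 0.2 TPM in Bowman to 5.1 to 7.8 TPM in int-a.1, a log2 fold of 2.62 (SE 0.07, limma adjusted p 2.6e-18). MLOC_66603.1 went from 1.5 to 7.3 TPM to 8.0 to 16.8 TPM, a log2 fold of 1.32 (SE 0.21, adjusted p 0.00029). MLOC_19430.1 was less regular, with 0, 3.6 and 4.4 TPM and then 0.9, 1.8 and 4.9 TPM in int-a.1 against at most 0.8 TPM in Bowman, and its adjusted p went from 0.0027 to 0.13 when only the groups compared were fitted. MLOC_75105.1 at 46.53 had a log2 fold of 1.46 (SE 0.27, adjusted p 0.0025), but its int-a.1 and Bowman libraries overlapped at W3.5. The 5 rising transcripts were named, apart from the first, after their values were seen.

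Described genes that rose did so by small steps. MLOC_5992.3, at 41.64, matches UBC37, a ubiquitin-conjugating enzyme that passes ubiquitin to target proteins. Bowman held 8.6, 8.6, 8.8 and 10.2 TPM at W3.5 and 9.2, 11.7, 9.9 and 10.4 TPM at W5.5, and int-a.1 held 18.3, 14.8 and 14.3 TPM and then 19.3, 17.4 and 17.1 TPM. The groups did not overlap, and the log2 fold was 0.74 (SE 0.09, limma adjusted p 2.5e-06). AK370060, at 48.09, matches a 2-oxoglutarate and iron-dependent oxygenase in Arabidopsis and a transposon protein in rice; its libraries ran from 16.7 to 20.2 TPM in Bowman and from 23.1 to 28.2 TPM in int-a.1, a log2 fold of 0.45 (SE 0.06, adjusted p 4.8e-05).

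AK252323.1 matches MAP1A, an aminopeptidase that removes the first methionine of new proteins, and had a log2 fold of 0.30 (SE 0.06, limma adjusted p 0.0044). A low-confidence model with the same match at the same position, MLOC_21920.1, named after its values were seen, moved the other way with a log2 fold of -0.88 (adjusted p 0.024). MLOC_5653.2, a match of the mitogen-activated protein kinase MPK4, had 0.29 (adjusted p 0.010), and MLOC_39386.1, a match of the Noc2p family of ribosome assembly factors, had 0.26 (adjusted p 0.023). MLOC_55490.5 of the ribosomal protein list had 0.34 (adjusted p 0.029), and MLOC_10482.5, with an S1 RNA-binding domain, had 0.27 (adjusted p 0.019). AK252323.1, MLOC_21920.1, MLOC_5653.2, MLOC_39386.1, MLOC_55490.5 and MLOC_10482.5 lost their calls in a fit of only the groups compared. The calls of MLOC_21920.1, MLOC_39386.1, MLOC_55490.5 and MLOC_10482.5 were also lost without single libraries, among them int-a.1 W5.5 replicate 1 for each.

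The other gene groups of the interval had at most 2 calls each, where 2.13% of all transcripts were called, so their counts set no group apart. Of 54 protein kinases 1 was higher (2.16% of that list called in the whole table), of 35 transposon matches 1 was higher (1.82%), of 15 ribosomal proteins 1 was higher (0.949%) and of 33 RNA-handling genes 1 was higher (2.9%). The 56 ubiquitin-system genes (0.952% of the list called in the table) had 1 higher and 1 lower. The lower was MLOC_18585.1, an F-box protein with a log2 fold of -0.44 (SE 0.09, limma adjusted p 0.0064). It was not called when only the groups compared were fitted. Its int-a.1 replicates 1 held 15 TPM at W3.5 and 14.1 TPM at W5.5, within the Bowman range of 13.8 to 19.5 TPM. The other int-a.1 libraries held 9.2 to 11.5 TPM. Of 11 cell wall enzymes (0.985%) 1 was lower, the endoglucanase match above. None was called among 38 transcription factors, 15 chromatin genes, 16 transporters, 15 chaperones, 11 hormone genes and 6 immune receptors, and no cytochrome P450 lay in the interval. The medians of these lists ran from -0.16 in the immune receptors to 0.09 in the ribosomal proteins, against -0.0039 for all transcripts. Of 712 members with an informative description 22 were called (3.09%, against 1.13% of such transcripts in the table), and of the 408 others 26 (6.37%, against 3.33%).

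None of the 9 transcripts at the VRS3 position was called in any line, except with library weights. Over both stages 2.13% of the whole table was called in int-a.1 and less in the other lines. The lack of calls among 9 transcripts therefore does not set this position apart. The 6 transcripts named here share position 47.52 with the VRS3 row, and none was called in int-a.1, vrs4.k, vrs1 or int-c.5 over both stages. MLOC_68598.4, which matches PIF3, a transcription factor that acts downstream of phytochrome light receptors, ran from 5.2 to 11.3 TPM in Bowman and from 7.0 to 9.8 TPM in int-a.1. MLOC_16126.1, a match of the double-stranded RNA-binding protein DRB5, ran from 10.7 to 18.7 TPM and from 12 to 13.8 TPM. MLOC_30568.1, a WD-40 repeat protein, ran from 14.6 to 25.4 TPM and from 15.5 to 22.4 TPM. The ranges of the 2 lines overlapped in all 3.

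AK374648 and MLOC_22318.1, which have no informative description, had int-a.1 log2 folds of 0.19 (limma adjusted p 0.32) and 0.26 (adjusted p 0.27). With library weights AK374648 was called, with a log2 fold of 0.21 and an adjusted p of 0.042, as was MLOC_53188.3 in vrs4.k at W3.5 (0.45, adjusted p 0.033), which is named after its values were seen. AK369867, a match of a rice cysteine-rich family protein, had 0.04 (adjusted p 0.95). The sign of the log2 fold of AK369867, MLOC_16126.1, MLOC_30568.1 and MLOC_68598.4 changed when a library was left out, when libraries were weighted or with the replicate number as a block, so no direction is given for them.

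The falls were deeper at W5.5 than at W3.5 in all 16 transcripts that were at least 2-fold lower over both stages, with medians of -3.67 and -2.57 on the log2 scale, though none of these differences between stages was called. With library weights 10 of the 16 were called, all deeper at W5.5. The W3.5 libraries of int-a.1 were unequal in how far these transcripts fell. For the 17 members called at least 2-fold lower at W5.5, the W3.5 libraries, which entered that choice only through the spread estimated over all libraries, were read as a percent of the Bowman W3.5 mean. Their medians were 1.46%, 8.81% and 31.3% in replicates 1, 2 and 3 of int-a.1, and between 80.2% and 119% in the libraries of vrs4.k, vrs1 and int-c.5. Replicate 3 was the highest of the 3 in 16 of the 17.

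At W5.5 the same members stood at 0.877%, 0% and 2.32% in the 3 int-a.1 libraries. Among 128 transcripts of the rest of the table chosen by the same rule, the W3.5 medians were 24.9%, 21.5% and 39.02%, and replicate 3 was the highest in 60. The replicate numbers are those of the column headers, and what distinguishes that library was not tested. The endoglucanase match MLOC_24935.1 is an example, with 4.6 and 6.7 TPM in replicates 1 and 2 and 26.4 TPM in replicate 3.

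**Figure D4:**
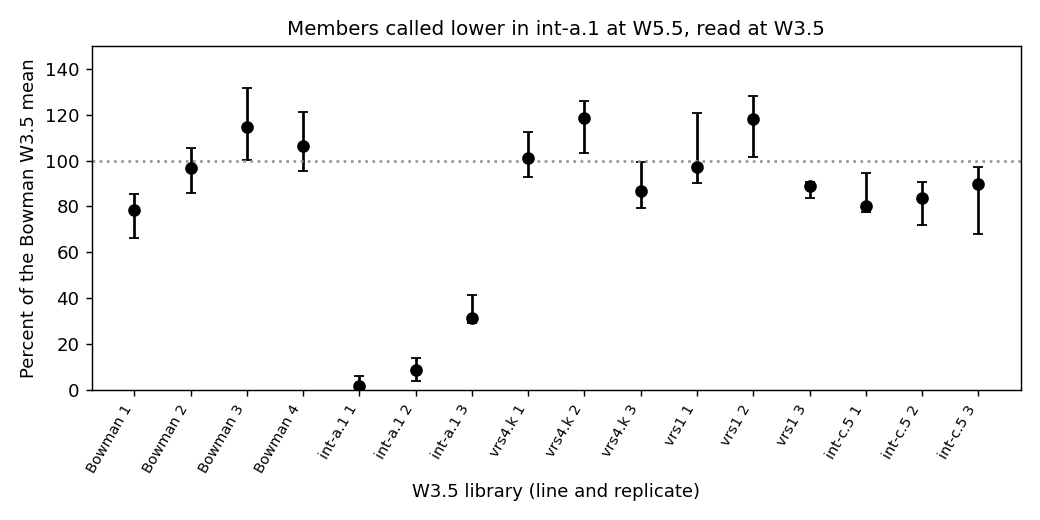
Median, with the interquartile range as bars, of the abundance of 17 interval transcripts in each W3.5 library as a percent of the Bowman W3.5 mean; the 17 were called at least 2-fold lower in int-a.1 at W5.5 and the dotted line marks 100%. The int-a.1 libraries lie at 1.46%, 8.81% and 31.3%, and every library of vrs4.k, vrs1 and int-c.5 at 80.2% or above.

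A few transcripts split the int-a.1 libraries instead of moving in all of them; the rule was chosen after this was seen in the data. In 4 members, 4 of the 6 int-a.1 libraries lay outside the Bowman range on 1 side and at least 2-fold from the Bowman mean (after adding 1 TPM) while the other 2 did not pass the range, and in 3 of the 4 those 2 were replicate 1 of each stage. Across all 30174 transcripts, 64 were split this way, 36 of them with replicate 1 of each stage. AK250623.1, at 35.69, matches the defensin PDF2.2, a small cysteine-rich defence peptide.

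In AK250623.1 replicate 1 held 76.7 TPM at W3.5 and 108.1 TPM at W5.5, inside or below the Bowman range of 95.2 to 202.4 TPM. The other int-a.1 libraries held 864.5 and 562.1 TPM, and 846.1 and 620.7 TPM. The log2 fold over both stages, 1.51, did not pass the test (SE 0.42, limma adjusted p 0.060). MLOC_39438.2 at 37.29 held 0 and 0.8 TPM in the replicates 1 and 5.8 to 7.3 TPM in the other 4, against at most 1.4 TPM in Bowman. MLOC_20056.1 at 47.95 held 0.4 and 0 TPM against 12.5 to 21.9 TPM, with Bowman at 0.4 to 5.4 TPM. At MLOC_19024.1 and MLOC_5992.3 the replicates 1 were as high as the others. At MLOC_19430.1, a called rise, they were the lowest of their stage, with 0 and 0.9 TPM against 1.8 to 4.9 TPM in the other int-a.1 libraries.

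Fewer interval transcripts were called in the other lines, by counts that depend on the fit. Over both stages vrs4.k had 11 calls (1.54% of the table), vrs1 had 5 (0.497% of the table) and int-c.5 had 1 (0.345% of the table), and the interval's shares were 0.982%, 0.446% and 0.0893%. At single stages vrs4.k had 3 calls at W3.5 (0.653% of the table) and 2 at W5.5 (0.696%), and vrs1 had 4 (0.341%) and 2 (0.325%). In int-c.5 none was called at W3.5 or W5.5 in limma (0.0994% and 0.106% of the table), where 79 and 49 members had an unadjusted p below 0.05 (7.05% and 4.38%, against 8.05% and 5.35% of the table). With library weights the counts over both stages were 63 in vrs4.k (5.62%, against 6.53% of the table), 8 in vrs1 (0.714%, against 0.945%) and 18 in int-c.5 (1.61%, against 1.45%), and 6 in int-c.5 at W5.5. The vrs4.k count over both stages rose to 21 without Bowman W3.5 replicate 4 and to 22 without the libraries apart from their stage. It dropped to 3 without vrs4.k W5.5 replicate 1. The vrs1 count was 2 without Bowman W5.5 replicate 2 or vrs1 W3.5 replicate 1. The shares of the whole table in these fits without libraries are not given here, so the changes in count are not read as a trait of the interval. None of the 21 large int-a.1 differences was called, or reached 2-fold, in vrs4.k, vrs1 or int-c.5. These 21 were chosen for their int-a.1 difference. With 1.54%, 0.497% and 0.345% of the table called in the other lines, a lack of calls among 21 transcripts does not set them apart. No share of the table is given for the 2-fold limit.

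Both vrs4.k and vrs1 had lower values of 2 transcripts at 47.66, neither of which was called in int-a.1 or int-c.5; the pair is named after its values were seen. MLOC_17698.1, a high-confidence model without a described match, held 10.5, 11.9, 12.1 and 12.8 TPM in Bowman at W3.5 and 12.2, 11.3, 15.1 and 13.6 TPM at W5.5. In vrs4.k it held 3.3, 3.4 and 3.6 TPM and then 4.4, 5.1 and 4.5 TPM, a log2 fold of -1.42 (SE 0.12, limma adjusted p 1.2e-08). In vrs1 it held 5, 4.4 and 5.1 TPM and then 5.1, 4.9 and 6.8 TPM, a log2 fold of -1.11 (SE 0.12, adjusted p 1.4e-06). No library of either line reached the lowest Bowman library, and the int-a.1 libraries ran from 10 to 19.5 TPM.

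MLOC_17697.2 had log2 folds of -1.48 in vrs4.k (SE 0.14, limma adjusted p 4.2e-08) and -1.21 in vrs1 (SE 0.14, adjusted p 2.4e-06). Both lines are compared with the same Bowman libraries, and in int-a.1 against the mean of the other 3 lines, which uses no Bowman library, MLOC_17698.1 had a log2 fold of 1.11 (adjusted p 7.8e-08). In vrs4.k MLOC_36987.1, a match of IAA26, a repressor of auxin responses, had a log2 fold of 0.50 (SE 0.12, adjusted p 0.038). MLOC_57097.1, a match of TON2, a phosphatase subunit that organises cortical microtubules in Arabidopsis, had -0.76 (SE 0.19, adjusted p 0.039). Both of these calls were lost in a fit of only the groups compared and without any 1 of several libraries, vrs4.k W5.5 replicate 1 among them. MLOC_50537.1, without a match, was called lower in int-a.1, vrs4.k and int-c.5, which share the Bowman libraries.

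**Figure D5:**
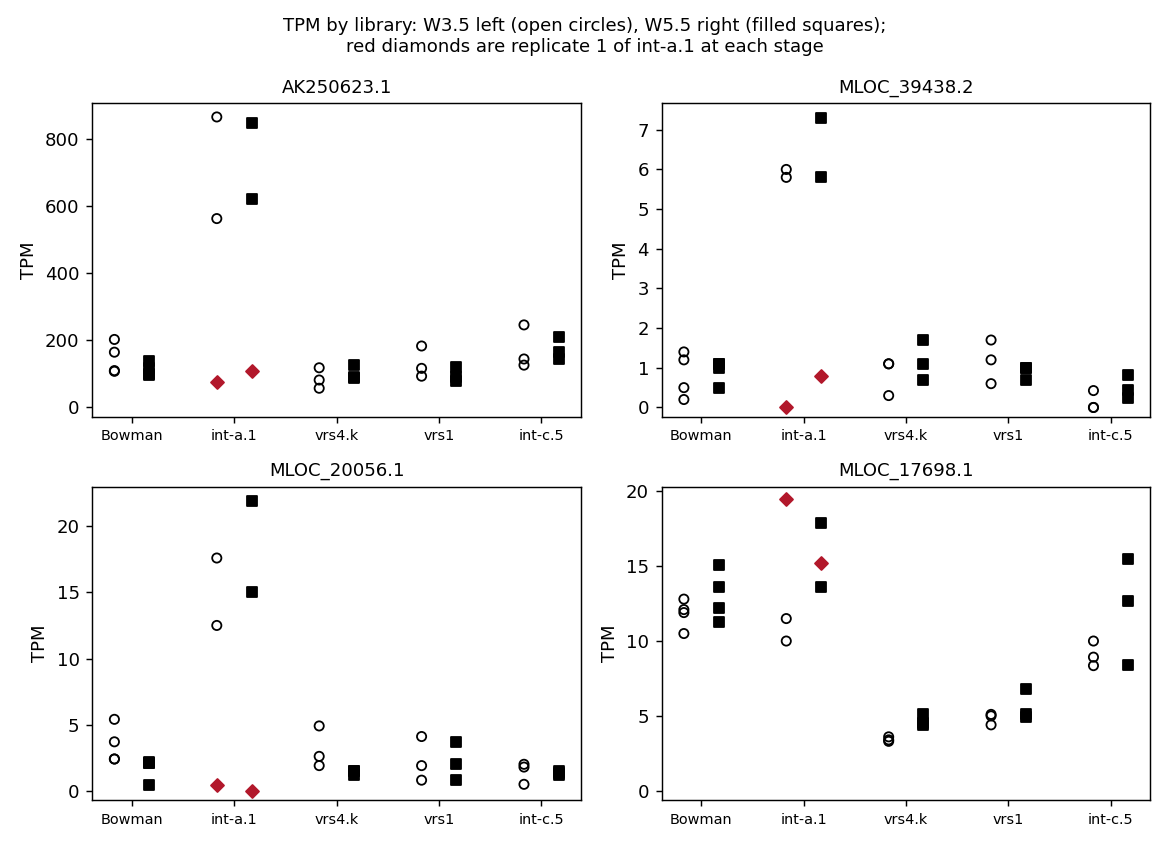
TPM of 4 interval transcripts in every library, by line, with W3.5 as open circles, W5.5 as filled squares and replicate 1 of int-a.1 at each stage as red diamonds. In AK250623.1, MLOC_39438.2 and MLOC_20056.1 the red diamonds lie within or below the Bowman range and the other 4 int-a.1 libraries lie above it, and in MLOC_17698.1 the vrs4.k and vrs1 libraries lie below all others.

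A comparison of int-a.1 with the mean of the other 3 lines, which uses the same int-a.1 libraries but no Bowman library, called 35 members over both stages (0.848% of the table), 25 at W3.5 (0.414%) and 31 at W5.5 (0.636%). Of the 48 transcripts called against Bowman, 30 were called there with the same sign. These 30 are 2.68% of the interval, where 0.6% of the table passed both. All 21 differences of at least 2-fold were called. In 17 of them the 6 int-a.1 libraries lay outside all 18 libraries of the other lines. The 21 were chosen by these same int-a.1 libraries, so these counts are not independent of that choice. No share over the whole table is given for the 17. For int-a.1 the authors' deposited table gives 42 interval members a false discovery rate below 0.05, against 1.65% of the table. The authors' deposited table gives the same sign for all 48 transcripts called here and a false discovery rate below 0.05 for 36 of them.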

How the data were processed

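The deposited series table holds 30174 transcripts and 32 libraries. Its header speaks of raw counts, yet the deposited values are fractional and every library has nearly the same sum, so they were taken as TPM. A single deposited column (int-c.5 W3.5 replicate 1) is rounded to whole numbers and was recorded as a score on the TPM scale. The authors' deposited log2 fold changes, p-values and false discovery rates serve only as a comparison. Tools named in the submitters' processing notes are BWA, GATK, Salmon and limma; their versions and roles, and the genome build, are not given in the sources used here. W3.5 was followed by a stage called W5.0 in the file headers and 5.5 in the labels. Chromosome and PopSeq position are the deposited ones, with no unit named. Column headers name a line, a stage and a replicate number but not which sample, and nothing says that a number links libraries of different groups.

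A single limma fit (version 3.58.1, R 4.3.3) of log2(TPM + 1) took in all 32 libraries, with 10 groups, no covariate and 16 comparisons; it was tested on simulated data. The filter (1 TPM in 3 libraries) removed nothing. A 2-fold difference is a log2 difference of at least 1. Members, 14 keyword lists (transposons, immune receptors, PPR, kinases, transcription factors, chromatin, ribosomal proteins, ubiquitin, chaperones, cell wall, transporters, hormone, RNA handling, cytochrome P450) and the naming rule were chosen with earlier results of these data known. The rule takes the extreme non-overlapping called members with an informative description in int-a.1, called ones with a description in the other lines, up to 2 called per list, the first and last called on the map and those nearest VRS3. Depth is unknown. No member matched the reference gene table, so no sequence is shown.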

Additional observations from a re-analysis of the deposited data

Results flagged for a closer look

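In the 2 Bowman groups of 4 libraries, 52 checks over the 26 transcripts named by rule flagged 8 with 1 library far from the other 3 by Dixon's test, where chance flags about 1 in 20 groups. AK252323.1 stood at 46.5 TPM in W5.5 replicate 2 against 54.3 to 55 TPM in the others. AK369867 stood at 8.6 TPM in W5.5 replicate 2 against 5.3 to 5.4 TPM, and MLOC_7032.1 at 13.2 TPM in the same library against 10.6 to 10.9 TPM. AK372801 stood at 36 TPM in W3.5 replicate 3 against 18.7 to 21.6 TPM. MLOC_10482.5 stood at 37.4 TPM in W5.5 replicate 4 against 39.3 to 39.5 TPM. MLOC_19024.1 stood at 1.3 TPM in W3.5 replicate 1 against 0 to 0.1 TPM. MLOC_36987.1 stood at 19.1 TPM in W5.5 replicate 1 against 13.4 to 14 TPM, and MLOC_5992.3 at 10.2 TPM in W3.5 replicate 4 against 8.6 to 8.8 TPM.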

How the results depend on the processing

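Of the 48 calls in int-a.1 over both stages, 25 held in every alternative and 31 without each library in turn; of the 21 at least 2-fold, 20 and 21 held. Counts of members called are given in the order W3.5, W5.5 and mean of both stages. Counts in this section stand without the share of the whole table, which also changes with the fit. With limma's library weights they were 113, 63 and 160 in int-a.1, 63, 5 and 63 in vrs4.k, 4, 4 and 8 in vrs1, 1, 6 and 18 in int-c.5, 155, 79 and 126 in int-a.1 against the other 3 lines, and 23 in the interaction. With high-confidence models only they were 6, 5 and 13 in int-a.1, 1, 1 and 2 in vrs4.k, 1, 1 and 1 in vrs1, 0 in int-c.5 over both stages, and 6, 7 and 10 against the other 3 lines. With only the groups compared they were 2, 19 and 25 in int-a.1, 2, 2 and 6 in vrs4.k and 1, 1 and 2 in vrs1. At an adjusted p below 0.01 they were 17, 22 and 30 in int-a.1, 2, 2 and 3 in vrs4.k and 2, 2 and 2 in vrs1. With quantile normalization they were 5, 4 and 11 in vrs4.k and 2, 2 and 3 in vrs1, and with 5 TPM in 3 libraries 5 in vrs4.k at W3.5. Leaving out the libraries that lay apart by stage gave 28, 34 and 69 in int-a.1, 2, 4 and 22 in vrs4.k, and 1, 1 and 2 in int-c.5. With the replicate number of the headers as a block, chosen after seeing the data, they were 21, 27 and 46 in int-a.1, 7, 2 and 18 in vrs4.k, 2, 2 and 2 in vrs1 and 0, 0 and 1 in int-c.5. Same-numbered libraries had deviations from their group means correlated, across transcripts, from -0.464 to 0.418, and over 0.1 in 11 of 40 pairs. None of the 13 group comparisons had all its pairs over 0.1. Between the 2 stages of Bowman 3 of 4 pairs were over 0.1, and between those of int-a.1 1 of 3. Deviations within groups of 3 or 4 libraries cannot exclude a link, so whether the numbers pair libraries was not settled. A run with no filter was void. The causes were not tested.

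Leaving out 1 library at a time gave 18 to 28 calls in int-a.1 at W3.5, 21 to 27 at W5.5 and 37 to 56 over both stages; 22 to 27, 25 to 32 and 30 to 40 against the other 3 lines; and 0 to 1 in the interaction. It gave 2 to 11, 2 to 5 and 3 to 21 in vrs4.k, the highest at W3.5 and over both stages without Bowman W3.5 replicate 4 and the lowest over both without vrs4.k W5.5 replicate 1; 2 to 4, 2 to 3 and 2 to 4 in vrs1; and 0 to 1, 0 to 0 and 1 to 3 in int-c.5. Without 1 library the log2 fold of AK369867 ran from -0.088 to 0.21, of MLOC_16126.1 from -0.0040 to 0.12 and of MLOC_68598.4 from -0.06 to 0.11. With library weights MLOC_30568.1 had 0.012 and MLOC_68598.4 had -0.0036, and the latter had -0.055 in the fit that left out the libraries lying apart and -0.068 with the replicate block.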
